A study of Mus musculus with 16 samples.

Results

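The genes described here are 8 transcription factors that meet in acute myeloid leukaemia with mutant nucleophosmin: the homeobox cofactors Meis1, Meis2, Pbx2, Pbx3 and Pknox1, and the leukaemia-linked factors Mecom, Nkx2-3 and Sox4. They were chosen by name, as 8 of the 23999 gene symbols in a table of raw RNA sequencing counts, and Hoxa9 was read beside them as the HOX gene they are set against. All 8 were found under these symbols.

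The samples were myeloid sarcomas, solid growths of leukaemic myeloid cells outside the marrow, and whole bone marrow infiltrated with the leukaemia. Every mouse carried the NPM1cA mutation, a frameshifted nucleophosmin that sits in the cytoplasm. Sarcomas came from 4 SMC3+/- mice (948, 1267, 1268_1270 and 2721), which are heterozygous for the cohesin subunit Smc3, and mice 948 and 2721 gave 2 tumours each. Marrow came from 9 SMC3+/- mice (737, 779, 782, 919, 949, 1103, 1267, 2721 and 3332), so that mice 1267 and 2721 gave both tissues. A further sarcoma, of mouse 841, was NPM1cA with wild type SMC3 by the study's design text, and its own label names NPM1cA alone. Whether 1268_1270 stands for 1 mouse or a pool of 2 is not stated, and it was counted as 1. The labels give neither the age of the mice nor what drives the NPM1cA and Smc3 alleles, and no healthy marrow was analysed here. Tumours went straight into Trizol, whereas marrow cells were crushed out of bone, filtered and freed of red cells first, so tissue and handling cannot be told apart.

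Levels below are CPM, read counts brought to a common library size with TMM scaling, with the tumours of a mouse summed, which left 14 samples of 1 mouse and tissue each. Totals were 12072482 to 33605464 counts in the SMC3+/- sarcoma libraries, 12395041 to 39197660 in marrow and 9797201 in mouse 841. Some libraries stood apart. Marrows 737, 779 and 782 were low in transcripts longer than 6000 bases, by 2.04 to 2.18 on the log2 scale, and the sarcoma of mouse 1268_1270 was low in blood cell RNA, with 631 CPM summed over 10 pan-leukocyte markers, against 5475 to 10256 CPM in the other SMC3+/- sarcomas and 7027 to 13909 CPM in marrow. Its 6 adipocyte markers summed to 40197 CPM. In such bulk samples fewer cells of a type and less RNA per cell cannot be told apart. A count of 0 allows up to 3 counts, which is 0.0709 to 0.278 CPM in 1 marrow sample, for counting error only.

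MEIS, PBX and PREP proteins (PREP1 is the product of Pknox1) are homeodomain proteins of the TALE class, named for a short insertion in the homeodomain. They bind DNA together with HOX proteins and sharpen the choice of sites. In myeloid progenitors HOXA9 and MEIS1 keep a self-renewal programme running that is normally shut down as cells mature, and leukaemias with mutant nucleophosmin keep HOXA, HOXB and MEIS1 transcription on. MECOM encodes EVI1, a zinc finger repressor needed by haematopoietic stem cells and linked to aggressive myeloid leukaemia. NKX2-3 is a homeodomain factor of the spleen and gut vasculature, and SOX4 is an HMG box factor of early lymphoid and myeloid cells that can drive leukaemia when raised.

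The start regions of 4 of the genes are shown because the results turn on them. Meis1, Mecom and Nkx2-3 were high together in the sarcoma of mouse 841 and in 1 marrow. Meis2 is the gene that separated the SMC3+/- sarcomas from the marrows. They are RefSeq promoters on GRCm38.p6, read 5′ to 3′ on the gene's own strand from 250 bases before to 50 bases after the start. RefSeq rows were found for 6 of the 8 genes, with 2 starts for Mecom. Capitals mark a match, on either strand, to TGACAG, the short motif bound by MEIS and PREP proteins, and none held the HOX and PBX site TGATTNAT.
Meis1, chr11:19018920-19019219, minus strand: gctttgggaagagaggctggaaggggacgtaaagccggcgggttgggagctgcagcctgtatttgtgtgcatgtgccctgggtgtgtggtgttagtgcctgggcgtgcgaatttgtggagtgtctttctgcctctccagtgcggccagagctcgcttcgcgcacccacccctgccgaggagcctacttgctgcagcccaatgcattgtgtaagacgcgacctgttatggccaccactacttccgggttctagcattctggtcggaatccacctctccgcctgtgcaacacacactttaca
Meis2, chr2:116064570-116064869, minus strand: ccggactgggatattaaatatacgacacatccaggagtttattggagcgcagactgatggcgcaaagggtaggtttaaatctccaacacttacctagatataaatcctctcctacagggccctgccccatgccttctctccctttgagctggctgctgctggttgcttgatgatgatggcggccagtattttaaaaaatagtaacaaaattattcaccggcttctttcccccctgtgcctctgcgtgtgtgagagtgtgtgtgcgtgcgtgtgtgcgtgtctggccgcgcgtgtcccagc
Mecom, upstream start, chr3:30509710-30510009, minus strand: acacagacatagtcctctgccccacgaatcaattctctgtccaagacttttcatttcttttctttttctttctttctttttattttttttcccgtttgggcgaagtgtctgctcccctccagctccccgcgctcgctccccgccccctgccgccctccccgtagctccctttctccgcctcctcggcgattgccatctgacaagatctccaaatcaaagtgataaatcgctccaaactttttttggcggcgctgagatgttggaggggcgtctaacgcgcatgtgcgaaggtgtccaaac
Mecom, downstream start, chr3:30013155-30013454, minus strand: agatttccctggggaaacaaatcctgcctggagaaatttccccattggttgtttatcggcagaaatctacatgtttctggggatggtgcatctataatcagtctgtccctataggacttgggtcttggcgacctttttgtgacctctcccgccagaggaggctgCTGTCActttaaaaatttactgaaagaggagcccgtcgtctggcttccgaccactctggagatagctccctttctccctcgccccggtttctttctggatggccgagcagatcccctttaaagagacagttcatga
Nkx2-3, chr19:43612075-43612374, plus strand: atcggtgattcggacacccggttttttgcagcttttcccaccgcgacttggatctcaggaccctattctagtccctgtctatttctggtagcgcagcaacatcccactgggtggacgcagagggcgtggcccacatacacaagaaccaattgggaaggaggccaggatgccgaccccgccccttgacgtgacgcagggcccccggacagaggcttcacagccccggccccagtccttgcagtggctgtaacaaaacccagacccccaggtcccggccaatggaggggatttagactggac
The downstream Mecom start held the reverse complement CTGTCA once, and the other 6 promoters of these genes held neither motif. For scale, TGACAG occurs in 19.2% and TGATTNAT in 3.22% of all 32851 promoters of this length in the table, on either strand, and both motifs begin with the letters TGA. A match describes letters in this window and no more.

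Per kilobase of the longest coding transcript, Pbx2 and Pknox1 stood at the top of the 8 genes and Nkx2-3 in sarcoma and Meis2 in marrow at the bottom. On this scale mean levels ran from 24.1 CPM per kb for Pbx2 through 11.1 for Pknox1 and 9.34 for Pbx3 to 0.947 for Mecom and 0.381 for Nkx2-3 in SMC3+/- sarcomas. In SMC3+/- marrow they were 23.4 for Pbx2, 11.4 for Pknox1, 4.52 for Pbx3, 1.27 for Mecom, 0.591 for Nkx2-3 and 0.0124 for Meis2. Hoxa9, at 37.0 CPM per kb in sarcoma and 36.6 in marrow, was above all 8. The order of Pbx2, Pknox1 and Pbx3 was shared by both tissues, while differences between neighbours were not tested.

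**Figure D1:**
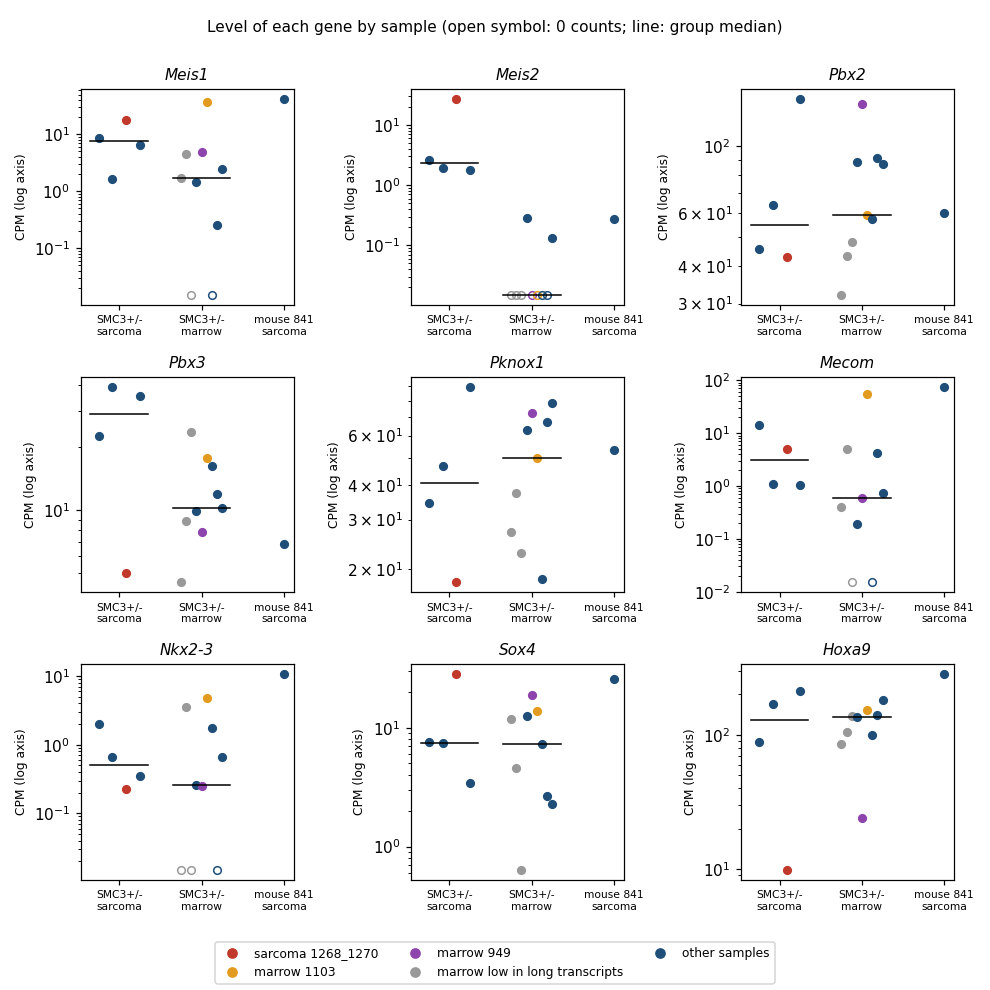
Level of each of the 8 genes and of Hoxa9 (CPM on TMM-scaled totals, log axis) in the SMC3+/- sarcomas, the SMC3+/- marrows and the sarcoma of mouse 841, 1 point per mouse and tissue, with the group median as a line. Open symbols are samples with 0 counts. Meis2 is the gene whose SMC3+/- sarcoma points all lie above its marrow points. Its point for mouse 841, at 0.274 CPM, lies below that of marrow 919, at 0.284 CPM. Mecom and Meis1 peak in marrow 1103 and in mouse 841.

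Over the marrows the genes fell into a steady and a variable set. Over the 9 marrows the SD of log2 CPM was 0.66 for Pbx2, 0.71 for Pbx3 and 0.78 for Pknox1, which is less than the median of 1.04 over all 14730 genes tested. It was 3.05 for Mecom, 2.90 for Meis1, 2.35 for Nkx2-3 and 1.54 for Sox4. Over the 4 SMC3+/- sarcomas the split did not hold, since the SD was 0.80 for Pbx2, 0.97 for Pknox1 and 1.36 for Pbx3, beside a median of 0.81 over all genes. There it was 1.20 for Nkx2-3, 1.25 for Sox4, 1.41 for Meis1 and 1.78 for Mecom. The PBX and PREP genes had counts in every sample, while Meis1, Mecom and Nkx2-3 had 0 counts in 2, 2 and 3 of the 9 marrows and many counts in a few others. Meis1, at 7553 bases, belongs to the long transcripts that marrows 737, 779 and 782 were low in. Marrow 782 had 0 counts of it, and marrows 737 and 779 had 1.69 and 4.45 CPM. The other marrow with 0 Meis1 counts, 1267, was not among these libraries, at -0.75 on the log2 scale for long transcripts. The part of this in the Meis1 counts was not tested.

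**Figure D2:**
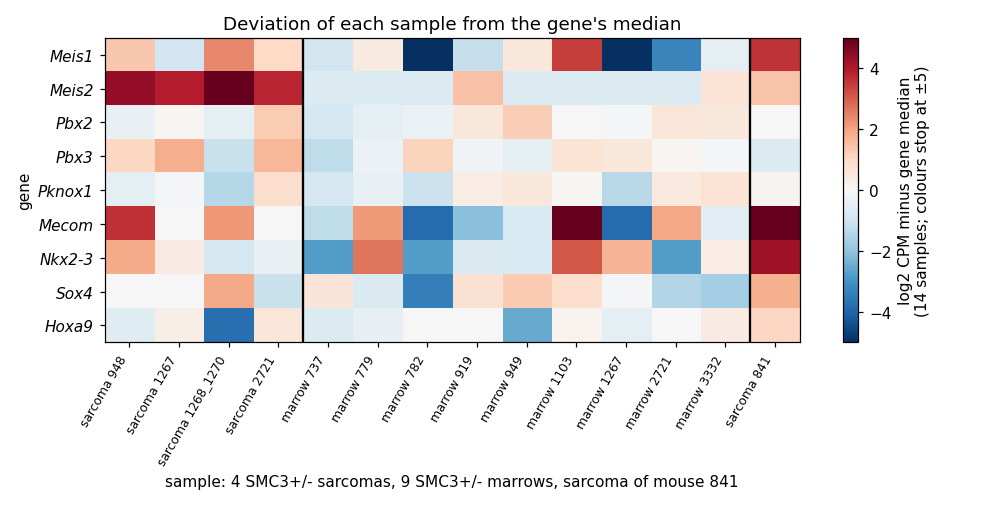
Log2 CPM of each gene minus its own median over the 14 samples, with SMC3+/- sarcomas on the left, SMC3+/- marrows in the middle and the sarcoma of mouse 841 on the right. Over the marrows Pbx2, Pbx3 and Pknox1 are paler than Meis1, Mecom and Nkx2-3, and Meis1, Mecom and Nkx2-3 turn red in marrow 1103 and in mouse 841.

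Between tissues, 1 of the 8 genes rose in sarcoma and none fell. The test was edgeR's quasi-likelihood test over all 14730 genes that passed the count filter, with Benjamini-Hochberg adjustment and a threshold of 0.05, and all 8 genes passed that filter. Over all genes 4.49% were called higher in sarcoma, 0.0543% lower and 4.55% in either direction, beside which 1 of 8 genes says nothing about the list. At an unadjusted p under 0.05 the count was also 1 higher and 0 lower, beside 11.7% of all genes higher and 2.10% lower. limma-voom called 1 of the 8 higher and 0 lower, beside 6.05% and 0.143% of all genes. DESeq2 called 0 of the 8 in either direction, beside 3.23% higher and 0.599% lower of the genes to which it gave an adjusted p. The median log2 fold change was 0.16 over the 8 genes and 0.07 over all genes tested. The p-values measure the spread between mice.

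**Figure D3:**
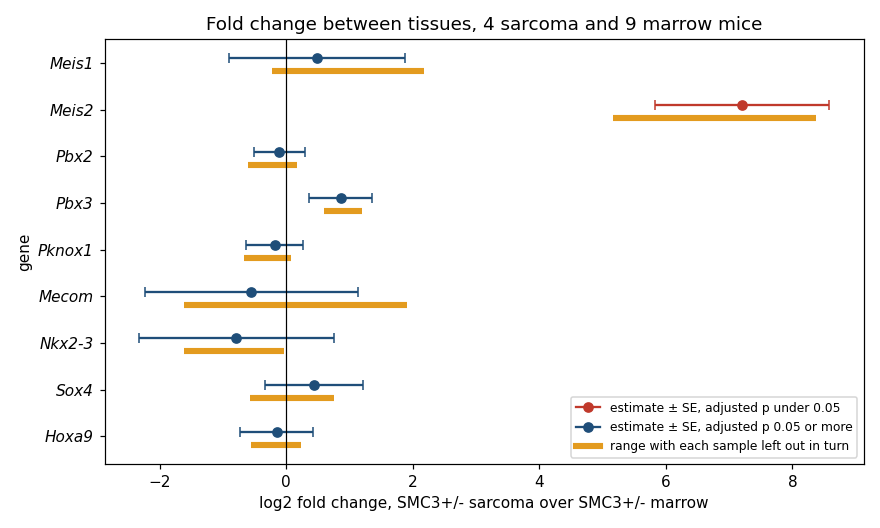
Log2 fold change of SMC3+/- sarcoma (4 mice) over SMC3+/- marrow (9 mice) for each gene, with its SE as a blue or red bar and, as an orange bar, the range of the estimate when each sample is left out in turn. The bar of Meis2 stays right of 0, and the bars of Meis1, Mecom, Sox4, Pbx2, Pknox1 and Hoxa9 cross 0.

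Meis2, the TALE paralogue of Meis1 best known from limb and heart development and from neuroblastoma, separated the SMC3+/- sarcomas from the marrows. It had 2.67, 1.93, 26.8 and 1.76 CPM in the sarcomas of mice 948, 1267, 1268_1270 and 2721. In marrow it had 0 counts in 7 of 9 mice, 0.284 CPM in marrow 919 and 0.132 CPM in marrow 3332. The groups did not overlap, as for 4.56% of all genes with sarcoma above marrow; sarcoma lay wholly below marrow for 0.122% of all genes and for 0 of the 8. The means were 8.28 ± 12.3 CPM in sarcoma (SD, n = 4) and 0.0462 ± 0.0992 CPM in marrow (SD, n = 9), on 807 and 16 counts in all. The log2 fold change was 7.20 ± 1.38 (SE, adjusted p = 0.00716 by edgeR). Meis2 passed the count filter through the sarcomas alone, so a difference was preset by its being tested, and with so few marrow counts the size of the fold depends on the prior count of the fit.

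A single tumour weighed heavily in that result. The sarcoma of mouse 1268_1270 held 589 of the 807 Meis2 counts, or 72.99%. Without it the log2 fold change of Meis2 was 5.17 and the edgeR adjusted p was 0.125, although the other 3 sarcomas were still above every marrow. Without the 3 marrows low in long transcripts the change was 6.67 with an adjusted p of 0.0475, and without those and the sarcoma of mouse 1268_1270 it was 4.68 with an adjusted p of 0.269. With the mouse as a block it was 8.44 ± 3.87 (SE, edgeR adjusted p = 0.833). In that fit mice 1267 and 2721, which gave both tissues, alone inform the tissue difference.

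Some markers of fibroblasts, adipocytes, endothelium, skeletal muscle and macrophages also rose in sarcoma, where edgeR called 4.49% of all genes higher. Of the fibroblast markers 7 of 9 tested rose in sarcoma by edgeR, and their summed level was 1104 to 4388 CPM in SMC3+/- sarcomas and 4.46 to 282 CPM in marrow, with 2444 CPM in mouse 841. Lum, a matrix proteoglycan, and Col3a1, a fibrillar collagen, were among them. Adipocyte markers rose in 5 of 5 tested, with sums of 185 to 40197 CPM in SMC3+/- sarcomas, 1.21 to 20.9 CPM in marrow and 83.8 CPM in mouse 841. Endothelial markers rose in 3 of 8, with 83.7 to 467 CPM, 11.0 to 155 CPM and 334 CPM in the same order. Skeletal muscle markers rose in 4 of 6, with 7.90 to 1391 CPM, 7.70 to 77.6 CPM and 31.5 CPM. Macrophage markers rose in 5 of 7, with 468 to 890 CPM, 2.05 to 103 CPM and 131 CPM. The highest fibroblast, endothelial and adipocyte sums were those of the sarcoma of mouse 1268_1270, which also had the most Meis2. The sarcoma of mouse 948 had the lowest fibroblast sum of the SMC3+/- sarcomas and the next most Meis2, at 2.67 CPM. Marrow 1103 had the highest fibroblast sum of the marrows and 0 Meis2 counts. Marrows 919 and 3332, which had Meis2 counts, had fibroblast sums of 66.5 and 62.8 CPM. The part of these cell markers in the Meis2 result was not tested. The sarcoma of mouse 841 had a fibroblast sum within the SMC3+/- range and 3 Meis2 counts, or 0.274 CPM.

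Meis1, the direct partner of HOXA9 in leukaemia, varied widely within each tissue and was not called between them. It had 8.47, 1.64, 17.8 and 6.60 CPM in the sarcomas of mice 948, 1267, 1268_1270 and 2721. In marrow it ran from 0 through a median of 1.69 to 36.7 CPM, the highest being marrow 1103 and the next 4.88 CPM in marrow 949. Marrow 1103 alone held 1149 of 1456 marrow counts of Meis1, or 78.91%. The group means were 8.63 ± 6.77 CPM in sarcoma and 5.75 ± 11.7 CPM in marrow (SD, n = 4 and 9), and the groups overlapped. The log2 fold change was 0.49 ± 1.39 (SE, edgeR adjusted p = 0.975). It was 2.17 without marrow 1103 and -0.22 without the sarcoma of mouse 1268_1270, so the direction rested on single samples. Other fits gave larger estimates, none of which passed. When the fit to all 13 samples included the mouse as a block, the log2 fold change was 5.08 ± 1.67 (SE, edgeR adjusted p = 0.424). In that fit mice 1267 and 2721, which gave both tissues, alone inform the tissue difference. With limma-voom the change was 2.25 (adjusted p = 0.412). With scaling to pan-leukocyte markers it was 3.35 (edgeR adjusted p = 0.0619), where the median of all genes was 2.18.

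Both mice with matched tissues had more Meis1 in the tumour. Mouse 1267 had 1.64 CPM of Meis1 in its sarcoma, on 57 counts, against 0 counts in its marrow. Mouse 2721 had 6.60 CPM in its sarcoma, on 263 counts, and 0.256 CPM in its marrow, on 7 counts. The longest coding transcript of Meis1, at 7553 bases, is in the class longer than 6000 bases. For that class the marrow of mouse 1267 stood at -0.75 on the log2 scale and its sarcoma at -0.02. The marrow of mouse 2721 stood at 0.39. The part of this in the Meis1 counts was not tested. Meis2 likewise had 1.93 and 1.76 CPM in the sarcomas of mice 1267 and 2721 and 0 counts in both marrows. The direction was not particular to these genes, since Pbx2, Pbx3, Pknox1, Sox4 and Hoxa9 were also higher in both sarcomas. Hoxa9 had 169 CPM in sarcoma and 99.6 CPM in marrow for mouse 1267, and 210 and 140 CPM for mouse 2721. Mecom and Nkx2-3 differed in direction between the mice. The edgeR fit to these 2 mice alone, with the mouse as a block, gave a log2 fold change of 5.54 ± 3.74 for Meis1 and 8.70 for Meis2, with an adjusted p of 0.999 for each, and called neither.

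Pbx2, a broadly expressed PBX protein, overlapped widely between tissues. It had 45.7, 63.8, 42.7 and 143 CPM in the sarcomas of mice 948, 1267, 1268_1270 and 2721, and 32.0 through a median of 59.3 to 139 CPM in marrow. Its mean was 73.9 ± 47.3 CPM in sarcoma and 71.8 ± 33.0 CPM in marrow (SD, n = 4 and 9). The log2 fold change was -0.11 ± 0.41 (SE, edgeR adjusted p = 0.987). The highest sarcoma, that of mouse 2721, came from a mouse whose marrow, at 91.7 CPM, was also above the marrow median.

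Pbx3, the PBX protein most often named beside HOXA9 in human leukaemia, had higher values in 3 of 4 sarcomas than in nearly every marrow. It had 22.8, 39.1, 5.0 and 35.3 CPM in the sarcomas of mice 948, 1267, 1268_1270 and 2721, against 4.50 through a median of 10.2 to 23.8 CPM in marrow. The sarcoma of mouse 1268_1270, the one low in blood cell RNA, was below every marrow but 737. Mean levels were 25.5 ± 15.4 CPM in sarcoma and 12.4 ± 5.93 CPM in marrow (SD, n = 4 and 9), and the difference missed the threshold, at a log2 fold change of 0.86 ± 0.50 (SE, edgeR adjusted p = 0.542). With each sample left out in turn the estimate stayed between 0.59 and 1.20. In the matched mice Pbx3 was at 39.1 CPM in sarcoma and 16.4 CPM in marrow for mouse 1267, and at 35.3 and 12.0 CPM for mouse 2721.

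Pknox1, whose product PREP1 competes with MEIS proteins for PBX partners, did not separate the tissues. It had 34.4, 46.8, 17.9 and 89.8 CPM in the sarcomas of mice 948, 1267, 1268_1270 and 2721, and 18.4 through a median of 49.9 to 78.5 CPM in marrow. The log2 fold change was -0.18 ± 0.45 (SE, edgeR adjusted p = 0.968). Pknox1 and Pbx2 both had their highest sarcoma value in mouse 2721 and their lowest in mouse 1268_1270.

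Mecom was high in few samples and near 0 in many. Its level was 14.3, 1.10, 5.09 and 1.05 CPM in the sarcomas of mice 948, 1267, 1268_1270 and 2721. In marrow it was 53.7 CPM in mouse 1103, 4.91 CPM in mouse 779, 4.28 CPM in mouse 2721 and at most 0.727 CPM in the other 6 mice. Marrow 1103 held 1684 of 1901 marrow counts, or 88.58%. The means were 5.39 ± 6.25 CPM in sarcoma and 7.21 ± 17.6 CPM in marrow (SD, n = 4 and 9), with a log2 fold change of -0.56 ± 1.68 (SE, edgeR adjusted p = 0.977). Without marrow 1103 the sign turned and the change was 1.91. With limma-voom it was 1.76 and with DESeq2 1.75, so no direction is given for Mecom.

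Nkx2-3 was low in both tissues. It had 1.98, 0.663, 0.227 and 0.351 CPM in the sarcomas of mice 948, 1267, 1268_1270 and 2721. In marrow it had 0 counts in mice 737, 782 and 2721, a median of 0.260 CPM, and its highest values in mice 1103 (4.79 CPM) and 779 (3.52 CPM). Its log2 fold change was -0.79 ± 1.54 (SE, edgeR adjusted p = 0.954), and limma-voom gave 0.73. With 102 counts over all SMC3+/- sarcomas and 258 over all marrows, of which marrow 1103 held 58.14%, the difference was smaller than its SE from the spread between mice.

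The sarcoma of mouse 841 and marrow 1103 were the samples with the most Mecom, Meis1 and Nkx2-3. Mouse 841 had 75.3 CPM of Mecom, 41.3 CPM of Meis1 and 10.7 CPM of Nkx2-3, and marrow 1103 had 53.7, 36.7 and 4.79 CPM of the same genes. Both samples also had the highest erythroid marker sums, at 821 CPM in mouse 841 and 886 CPM in marrow 1103, against at most 514 CPM in the other 12 samples. Their neutrophil maturation markers summed to 28987 CPM in mouse 841 and 25899 CPM in marrow 1103, against 944 to 88166 CPM in SMC3+/- sarcomas and 18741 to 142798 CPM over all marrows. Progenitor markers summed to 96.8 CPM in mouse 841 and 120 CPM in marrow 1103. Their range was 85.9 to 266 CPM in SMC3+/- sarcomas and 39.5 to 650 CPM over all marrows. Marrow 1103 had the highest fibroblast sum of the marrows, at 282 CPM. The part of these cell markers in the pattern was not tested. Over the 9 marrows the log2 levels of Meis1 and Mecom had a Pearson r of 0.77 (p = 0.0139, exact permutation) and a Spearman rho of 0.76 (p = 0.0212, exact permutation). Adjusted over the 28 pairs of the 8 genes these were 0.248 and 0.357 and did not pass. Without marrows 782 and 1267, the 2 farthest from the median of Meis1 and both at 0 counts for both genes, r was 0.55, and without marrow 1103 it was 0.60. The relation therefore rests on a few marrows.

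**Figure D4:**
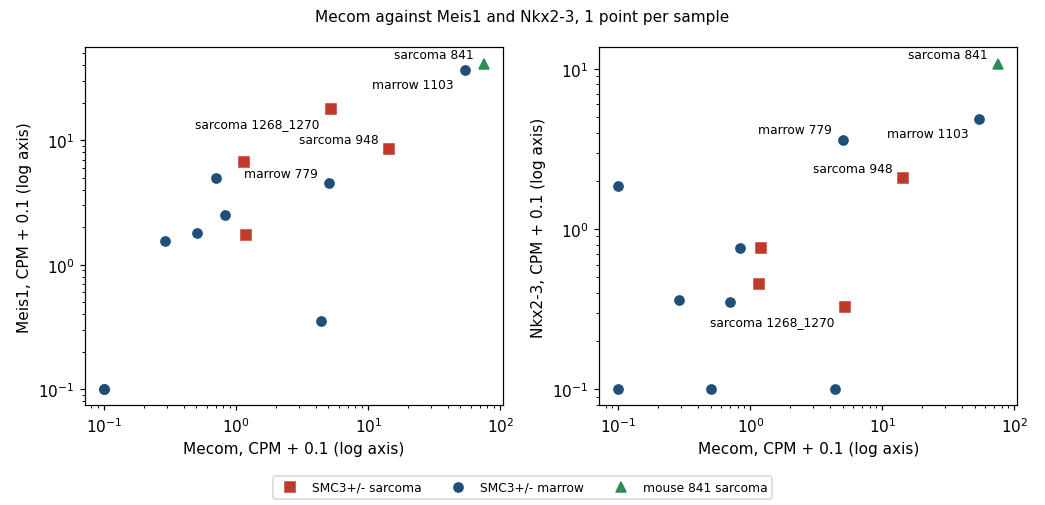
Level of Mecom against Meis1 (left) and Nkx2-3 (right), as CPM plus 0.1 on log axes, 1 point per mouse and tissue. Red squares are SMC3+/- sarcomas, blue circles SMC3+/- marrows and the green triangle the sarcoma of mouse 841; the triangle and marrow 1103 lie together at the upper right of both panels.

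The other pair with a large coefficient was Pbx2 and Pknox1. Their Pearson r over the 9 marrows was 0.77 (p = 0.0177) and their Spearman rho 0.75 (p = 0.0255), both by exact permutation, with adjusted values of 0.248 and 0.357. Without marrows 737 and 949, the 2 farthest from the median of Pbx2, r was 0.76. Marrows 737, 779 and 782, low in long transcripts, had the lowest Pbx2 of the marrows, at 32.0, 43.3 and 47.9 CPM. Over the 6 marrows without them r was 0.71 (p = 0.121) and rho 0.66 (p = 0.175), both by exact permutation. The part of library quality in this relation was not tested. Over the 9 marrows the remaining 26 pairs had larger p-values, and no pair of the 28 passed the adjustment.

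Sox4 overlapped between tissues. It had 7.61, 7.38, 28.2 and 3.41 CPM in the sarcomas of mice 948, 1267, 1268_1270 and 2721, and 0.637 through a median of 7.25 to 18.9 CPM in marrow. The highest marrow was that of mouse 949 and the lowest that of mouse 782, a library low in long transcripts. Its log2 fold change was 0.44 ± 0.77 (SE, edgeR adjusted p = 0.946), and it was -0.58 without the sarcoma of mouse 1268_1270.

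Hoxa9, the gene the 8 are read against, was abundant in all but 2 SMC3+/- samples. It had 89.0, 169, 9.86 and 210 CPM in the sarcomas of mice 948, 1267, 1268_1270 and 2721. In marrow it had 23.8 CPM in mouse 949 and 85.7 to 181 CPM in the other 8. The sarcoma of mouse 1268_1270 and the marrow of mouse 949 thus stood below all others. The tissue means were 119 ± 88.7 CPM in sarcoma and 118 ± 46.0 CPM in marrow (SD, n = 4 and 9), with a log2 fold change of -0.16 ± 0.58 (SE, edgeR adjusted p = 0.987).

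Taken as a ratio to Hoxa9 counts in the same sample, which needs no library scaling, Meis2 was the 1 gene of 8 that differed. These are the same counts as above and no second line of evidence: in the 7 marrows with 0 Meis2 counts the ratio is that of the added 0.5 to the Hoxa9 count, so the size of the difference depends on that addition. The mean log2 ratio of Meis2 to Hoxa9 was -4.24 in sarcoma and -11.24 in marrow, a difference of 7.0. The exact permutation test over the 715 splits of 4 and 9 samples gave p = 0.0014, the smallest it can give, and 0.0112 adjusted over the 8 genes. It too treats the samples of mice 1267 and 2721, which are in both groups, as independent. The count of 1 of 8 is over these genes alone, so no share over all genes stands beside it. For Pbx3 the difference was 1.33, with means of -1.91 in sarcoma and -3.23 in marrow (exact permutation p = 0.0238, adjusted 0.0951). Pbx3 stood at 25.6%, 23.2%, 50.7% and 16.8% of the Hoxa9 count in the sarcomas of mice 948, 1267, 1268_1270 and 2721, against 5.25% to 33.0% in marrow. Marrow 949 (33.0%) and marrow 782 (17.2%) were the marrows above the lowest sarcoma.

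The other 6 ratios did not separate the tissues. The difference was 3.13 for Meis1 and 2.60 for Mecom, each with an adjusted exact permutation p of 0.459. It was 1.35 for Nkx2-3 and 1.11 for Sox4 (adjusted p = 0.647 each, exact permutation), 0.48 for Pbx2 and 0.39 for Pknox1 (0.706 each). In the sarcoma of mouse 1268_1270 Meis1 reached 181% and Meis2 271% of the Hoxa9 count, while in the other SMC3+/- sarcomas Meis1 was at 0.974% to 9.51%. Meis1 was at 23.8% of Hoxa9 in marrow 1103 and 20.5% in marrow 949. In marrow 949 Hoxa9 was low, and in marrow 1103 it was not.

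**Figure D5:**
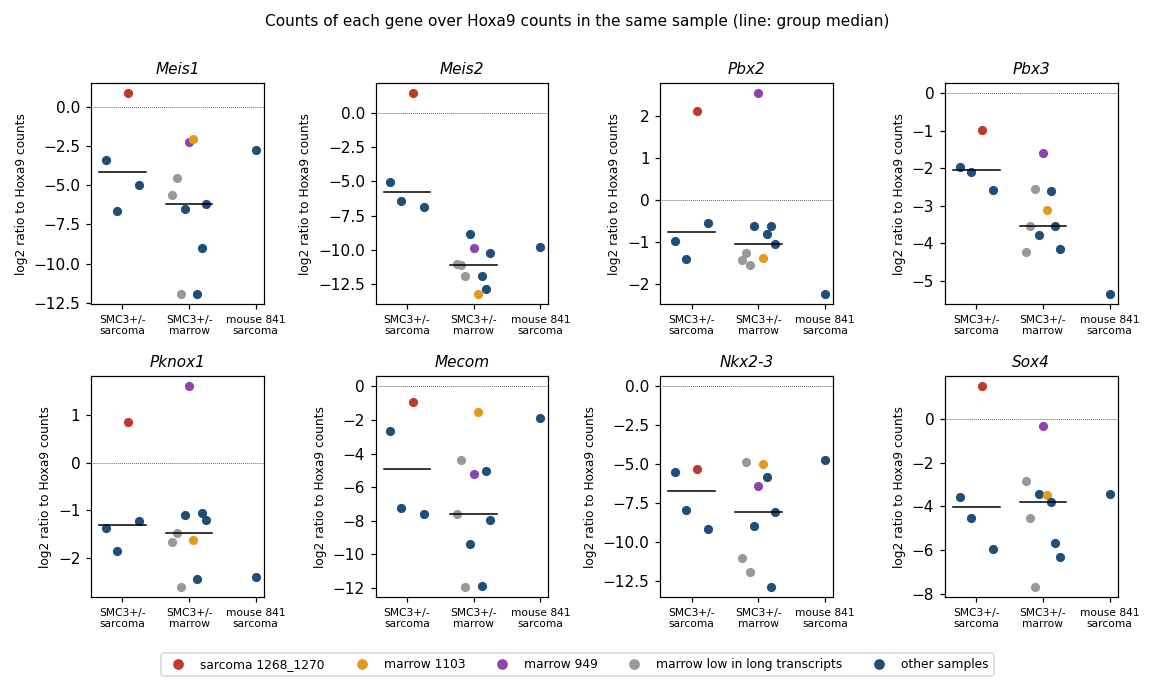
Log2 ratio of each gene's count to the Hoxa9 count in the same sample (0.5 added to both), in the SMC3+/- sarcomas, the SMC3+/- marrows and the sarcoma of mouse 841, with the group median as a line. The dotted line marks equal counts, and the sarcoma of mouse 1268_1270 is the highest of the 4 SMC3+/- sarcomas for each of the 8 genes.

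No correlation with Hoxa9 across marrows passed the test. Over the 9 mice none of the 8 correlations passed the adjustment, and none had a p under 0.05 before it. The largest Spearman coefficient was that of Pbx3, with a Spearman rho of 0.62 (exact permutation p = 0.0857, adjusted 0.617) and a Pearson r of 0.42 (p = 0.257). Without marrows 737 and 949, the 2 farthest from the median of Hoxa9, r was 0.03. Meis1, HOXA9's partner, had a rho of 0.03 and an r of -0.14 with Hoxa9, and Sox4 had a rho of -0.48 and an r of -0.52 (exact permutation p = 0.142), the largest Pearson coefficient in size.

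The comparison of SMC3 genotypes has 1 sarcoma with wild type SMC3, so it carries no test. A gene was called outside the range where the sarcoma of mouse 841 was beyond all 4 SMC3+/- sarcomas and at least 2-fold from their mean. Here the mean was taken over log2 values of CPM plus 0.1, unlike the means of CPM given above. The SMC3+/- sarcomas ran from 1.05 to 14.3 CPM for Mecom, 1.64 to 17.8 CPM for Meis1 and 0.227 to 1.98 CPM for Nkx2-3, and mouse 841, at 75.3, 41.3 and 10.7 CPM, was above each of these ranges. As differences of that log2 mean minus the log2 value of mouse 841 these are -4.56 for Mecom, -2.67 for Meis1 and -3.95 for Nkx2-3. Meis2 had 1.76 to 26.8 CPM in the SMC3+/- sarcomas, all above the 3 counts of mouse 841. That makes 3 of 8 genes with mouse 841 above the range and 1 of 8 below, beside 5.21% and 11.0% of all 14126 genes compared.

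The other 4 genes lay within the SMC3+/- range. Pbx2 ran from 42.7 to 143 CPM in the SMC3+/- tumours and stood at 60.1 CPM in the tumour of mouse 841. Pknox1 ran from 17.9 to 89.8 CPM in the SMC3+/- tumours, against 53.3 CPM in mouse 841. Pbx3 ran from 5.0 to 39.1 CPM in the SMC3+/- tumours, against 6.85 CPM in mouse 841. Both PBX genes and Pknox1 thus had a wild type value inside the spread of the 4 mice. Sox4 ran from 3.41 to 28.2 CPM in the SMC3+/- tumours, against 25.8 CPM in mouse 841. For Pbx3 and Sox4 the sarcoma of mouse 1268_1270 set the near end of the range. Without it, Pbx3 of mouse 841 was below and Sox4 above the remaining 3. Hoxa9 was also outside, with 9.86 to 210 CPM in the SMC3+/- tumours, against 283 CPM in mouse 841. Scaled to pan-leukocyte markers instead, Meis1 of mouse 841 came inside the range and Pbx3 below it. With 1 tumour the genotype and the tumour itself cannot be told apart, and its library was the smallest of the 16.

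Tumours of the same mouse differed most for the genes with few counts. The 2 tumours of mouse 948 had 0.603 and 5.58 CPM of Meis2, a 9.24-fold difference, and those of mouse 2721 had 0.870 and 2.49 CPM. For Mecom they were alike in mouse 948, at 14.7 and 15.1 CPM, and had 0.595 and 1.42 CPM in mouse 2721. Pbx3 had 24.0 and 23.0 CPM in mouse 948 and 35.2 and 31.1 CPM in mouse 2721. Meis1 had 5.07 and 13.6 CPM in mouse 948 and 6.60 and 5.81 CPM in mouse 2721. The Mecom level of mouse 948, the highest of the SMC3+/- sarcomas, was thus seen in 2 separate libraries.

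In the wider TALE family no gene beside Meis2 was called. Of 18 TALE homeobox genes listed, 11 passed the count filter. By edgeR 1 rose in sarcoma (Meis2, the call given above) and 0 fell, beside 4.49% and 0.0543% of all genes. At an unadjusted p under 0.05, 2 were higher and 0 lower, beside 11.7% and 2.10% of all genes. The median log2 fold change was 0.49. DESeq2 called 0 and limma-voom 1 higher, beside 3.23% of genes with an adjusted p and 6.05% of all genes. Meis3, the third MEIS gene, had 5.31 ± 5.34 CPM in sarcoma and 0.696 ± 0.763 CPM in marrow (SD, n = 4 and 9), with a log2 fold change of 2.87 ± 1.23 (SE, edgeR adjusted p = 0.296). Like Meis2 it was highest in the sarcoma of mouse 1268_1270, at 13.2 CPM.

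Genes that work with the 8 stayed uncalled by edgeR. Over all genes 4.55% were called in either direction, so a count of 0 in lists of 5 to 18 genes says little about them. No gene passed in either direction among 5 PBX interactors such as Pbxip1, 18 HOXA and HOXB genes, 17 genes of the menin and MLL machinery that maintains HOX and MEIS1 transcription, and 11 MECOM partners and PRDM relatives. In each of these 4 lists the count was also 0 at an unadjusted p under 0.05 and by DESeq2 and limma-voom. At an unadjusted p under 0.05, 11.7% of all genes were higher and 2.10% lower. DESeq2 called 3.23% higher and 0.599% lower of the genes with an adjusted p, and limma-voom 6.05% and 0.143% of all genes. Of 6 SOX genes tested 0 passed, with 1 higher at an unadjusted p under 0.05 and 1 by limma-voom. Of the NKX2 genes and Madcam1 Nkx2-3 was the 1 gene tested. Medians of the log2 fold change were -0.02 for the PBX interactors, -0.34 for the HOXA and HOXB genes, -0.08 for the menin and MLL genes and 1.39 for the SOX genes, beside 0.07 over all genes.

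Among 16 genes reported elsewhere as HOXA9 and MEIS1 targets, 0 passed in either direction by edgeR, beside 4.55% of all genes. At an unadjusted p under 0.05 there were 2 higher and 0 lower, beside 11.7% and 2.10% of all genes. DESeq2 and limma-voom each called 1 higher, beside 3.23% of genes with an adjusted p and 6.05% of all genes. The 2 were Igf1, a growth factor, and Mlf1, a myeloid leukaemia factor, named after their values were seen. Igf1 had 126 ± 130 CPM in sarcoma and 6.27 ± 10.2 CPM in marrow (SD, n = 4 and 9; log2 fold change 4.28 ± 1.23, edgeR adjusted p = 0.068), with 375 CPM in mouse 841. Mlf1 had 1.83 ± 2.14 CPM in sarcoma and 0.187 ± 0.307 CPM in marrow (log2 fold change 3.23 ± 1.39, edgeR adjusted p = 0.297). Flt3, a receptor kinase of progenitors, had 11.0 ± 16.3 CPM in sarcoma and 33.9 ± 22.1 CPM in marrow (SD, n = 4 and 9; log2 fold change -1.76 ± 0.90, edgeR adjusted p = 0.438). Myb, a factor of immature blood cells, had 209 ± 158 CPM in sarcoma and 208 ± 156 CPM in marrow, and was lowest in the sarcoma of mouse 1268_1270, at 5.73 CPM.

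For each gene the most similar patterns were sought among 9099 genes whose mean log2 CPM reached 3, by Spearman rho over the 13 SMC3+/- samples, as a description with no test. Pbx2 was near to Rfx1 and Trim11, each at 0.96, and Pknox1 to Alg12 (0.94), Atp11b (0.93) and Tubgcp4 (0.92). Meis2 was nearest to Pkp4, Serpinb6a and Tor1aip2, each at 0.90. The 13 points share 2 tissues and a range of library depths.

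The other 5 genes had a nearest neighbour at 0.84 to 0.89. Meis1 was nearest to Snx14 (0.89), Ifrd1 (0.88) and Rarg (0.87), Mecom to Thy1 (0.88), Fam129b (0.88) and Dnajb2 (0.84), and Nkx2-3 to Scarf1 (0.85), Bhlhe40 (0.81) and P2rx1 (0.75). Pbx3 was nearest to Bcl2a1b (0.88), Rsbn1 and Phtf1os (0.86 each), and Sox4 to Rabgap1l (0.84), Foxo1 (0.82) and Tcf4 (0.82).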

How the data were processed

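The authors deposited raw counts of 16 RNA libraries, whole numbers by gene symbol; 0 columns belonged to other samples and 2844 symbols had no count. Per the labels' protocols poly(A) RNA was selected, spike-in RNA was added and an NEBNext kit was used; 0 spike-in rows and 0 rows without a gene name were in the table. The submitters' processing notes name STAR, DESeq, DESeq2 and the mm9 build, with no version or role. No source used here gives strand settings or annotation, so reads of overlapping antisense genes and reads shared by paralogues cannot be told apart.

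The tumour libraries of a mouse were summed. Counts were scaled by TMM, filtered with filterByExpr and tested with edgeR 4.0.16 (glmQLFit with robust estimation, glmQLFTest, R 4.3.3), two-sided, with Benjamini-Hochberg adjustment over all genes tested. The SE was back-calculated from F and is approximate. Ratios to Hoxa9 used counts plus 0.5 and exact permutation of samples. Log2 CPM used a prior count of 2. The test was tried on simulated counts with known changes. DESeq2 1.42.0, limma-voom (limma 3.58.1), other scalings and filters, other units, blocks and left-out samples were run as alternatives. The counts carry no molecular identifiers, so floors cover counting error only. GENCODE transcript lengths and RefSeq promoters, both on GRCm38, were matched by symbol alone because those notes name mm9.

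Per the labels, mice 1267 and 2721 gave both tissues and so pair samples; their deviations from the tissue means correlated at 0.37 for mouse 1267 and 0.32 for mouse 2721. The 8 genes, the gene lists and the rule for named genes (all 8 and Hoxa9, called list members, nearest relatives and the 3 most similar genes each) were chosen with earlier results of these data known, and a few genes that met the rule are not reported here. Removal of tumour 1 of mouse 948, whose scaling factor stood apart, of the 2 samples lowest in Hoxa9, and of mice from the correlations between genes was chosen after seeing the data.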

Additional observations from a re-analysis of the deposited data

Results flagged for a closer look

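Of 18 groups of 4 to 9 samples examined (8 genes and Hoxa9 in 2 tissues), 2 held a sample far from the others on the log2 CPM scale, where chance gives about 1 in 20. Meis2 in the sarcoma of mouse 1268_1270 was at 26.8 CPM, the highest of the 4 SMC3+/- sarcomas, with a gap of 0.850 of the group's range in log2 CPM (critical value 0.829). Hoxa9 in the marrow of mouse 949 was at 23.8 CPM, the lowest of 9, with a gap of 0.630 of the range in log2 CPM (critical value 0.493). The choice of scale matters: on CPM itself the gap of Hoxa9 in marrow 949 was 0.392, under the critical value, and that of Meis2 in the sarcoma of mouse 1268_1270 was 0.964. On CPM the gaps of Mecom (0.909) and Meis1 (0.867) in marrow 1103, of Meis2 in marrow 919 (0.535) and of Sox4 in the sarcoma of mouse 1268_1270 (0.831) were also above their critical values. No cause was tested for either.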

How the results depend on the processing

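Of 32 alternatives for the tissue comparison, 24 kept the count of 1 gene called. It was 4 with scaling to pan-leukocyte markers, which called Meis2, Sox4 (3.75), Pbx3 (1.95) and Pbx2 (1.75). That scaling moved the median of all genes to 2.18 from 0.07, which is above the changes of Pbx3 and Pbx2. It called 9041 of all 14730 genes higher and 8 lower, so 4 of 8 genes says nothing about the list. The count was 0 with DESeq2, which gave Meis2 no adjusted p. It was 0 with tumour libraries as units and with the first tumour only, where Meis2 did not pass the count filter. It was also 0 with both fits that take the mouse as a block and without both the libraries low in long transcripts and the sarcoma of mouse 1268_1270. That block over 13 samples gave Meis2 8.44 (edgeR adjusted p = 0.833) and the block on mice 1267 and 2721 alone 8.70 (edgeR adjusted p = 0.999). In both fits only these mice, which gave both tissues, inform the tissue difference. With each sample left out the count was 0 to 1, being 0 without the sarcoma of mouse 1268_1270.

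The fold changes of the 6 uncalled genes below and of Hoxa9 changed sign under some alternatives; those of Meis2 and Pbx3 kept theirs under all that gave a value. With pan-leukocyte scaling Pbx2 was 1.75, Pknox1 1.31, Nkx2-3 0.25, Mecom 1.31 and Hoxa9 0.62. Under the mouse block fitted to all samples Pbx2 was 0.10, Pknox1 0.58, Nkx2-3 0.83, Mecom 0.57, Sox4 -0.11 and Hoxa9 0.37, and on the matched mice alone 0.14, 0.62, 1.31, 1.41, -0.076 and 0.41. With tumour libraries as units Pbx2 was 0.12, Pknox1 0.058 and Hoxa9 0.052, and with the first tumour only Hoxa9 was 0.040. With mouse 841 added Pbx2 was 0.041 and Hoxa9 0.018. Without tumour 1 of mouse 948 Pbx2 was 0.10 and Pknox1 0.018. limma-voom gave Nkx2-3 0.73 and Mecom 1.76, and DESeq2 gave Mecom 1.75. Without libraries low in long transcripts Meis1 was -0.0035, and without these and the sarcoma of mouse 1268_1270 Meis1 was -0.67, Sox4 -0.82 and Hoxa9 0.16. With each sample left out the ranges were -0.22 to 2.17 for Meis1, -0.61 to 0.18 for Pbx2, -0.66 to 0.071 for Pknox1, -1.61 to 1.91 for Mecom, -0.58 to 0.75 for Sox4 and -0.55 to 0.23 for Hoxa9.

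The count of ratios to Hoxa9 that differed was 0 without both the marrows low in long transcripts and the sarcoma of mouse 1268_1270. With so few samples left, the exact permutation test has too few splits for a lone gene to pass the adjustment. That 0 therefore does not show that the Meis2 difference depends on these samples. The count was 1 to 2 with each sample left out, the 2 being Meis2 and Pbx3 without marrow 949. With the mean of 4 HOXA genes as reference the differences of Pbx2 and Pknox1 were -0.21 and -0.30. Without those same samples they were -0.66 and -0.51, and that of Sox4 -0.83. Left-out ranges were -0.29 to 0.88 for Pbx2, -0.20 to 0.75 for Pknox1 and -0.44 to 2.05 for Sox4. The Spearman rho with Hoxa9 was -0.31 for Pbx2 without libraries low in long transcripts and -0.090 for Nkx2-3 without the 2 farthest mice. Between 4 and 6 genes of mouse 841 lay outside the SMC3+/- range. The cause was not tested for any of these changes. Few sarcoma mice, counts near 0 for Meis2 and Nkx2-3 in marrow, and a single tumour with wild type SMC3 limit what could be detected.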

Other observations

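The samples with the most Mecom and Meis1 also had much of some HOX genes, which were picked after their values were seen. Hoxb3 had 54.8 CPM in the sarcoma of mouse 841 and 49.7 CPM in marrow 1103, against at most 12.2 CPM in any other sample. Hoxb4 had 76.6 CPM in the sarcoma of mouse 841 and 61.1 CPM in marrow 1103, and at most 34.8 CPM elsewhere. Hoxa5 had 83.5 CPM in the sarcoma of mouse 841 and 75.3 CPM in marrow 1103, and at most 39.9 CPM elsewhere. These are values of 2 samples of different tissue and genotype, with no test.

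Pknox2, a relative of Pknox1, was high in few samples. It had 33.9 CPM in the sarcoma and 8.49 CPM in the marrow of mouse 2721, and 21.6 CPM in marrow 3332. Its 2 tumours in mouse 2721 had 29.6 and 34.4 CPM.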
